A study of Mus musculus with 16 samples.

Results

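Solute carriers are the membrane proteins that move sugars, amino acids, ions, metals, vitamins and lipids across the plasma membrane and the membranes of organelles, either down a gradient or driven by sodium, protons or an exchanged solute. The SLC genes are numbered by family, and the Slco genes encode the organic anion transporting polypeptides. In the epidermis they feed a dividing basal layer that has no blood vessels of its own, and *Slc2a1* is known as its main glucose transporter. TPA (a tumor promoter of mouse skin that acts through protein kinase C) changes proliferation and differentiation of cultured keratinocytes.

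The array held 454 probes of 311 genes whose symbol names a solute carrier. They were taken by symbol alone, without *Slc5a8*, and kept when the detection p-value was 0.01 or less on at least 4 of 16 arrays, which left 131 probes of 108 genes. Of these, 68 probes were detected on all 16 arrays, 88 genes had 1 probe past the rule and 20 had several. The other 323 probes were not past the rule, 265 of them were detected on no array, and 203 genes had no probe left. All 8778 probes that passed the same rule, of 25697 on the array, were fitted together.

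RNA came from keratinocytes of P1 pups of the strain FVBN, and each culture line was made from 1 pup. Ts-TPA and Ts-NT cultures carried the Ts1Rhr trisomy, an extra copy of a segment of mouse chromosome 16, and WT-TPA and WT-NT cultures were euploid. TPA cultures received 0.2 μM TPA for 12 h, and NT cultures received no treatment. Each group had 4 arrays, and this number limits the precision.

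Ts arrays were brighter than WT arrays before normalization, with median raw signals of 228 to 275 in Ts-TPA and 198 to 231 in Ts-NT, against 160 to 172 in WT-TPA and 156 to 170 in WT-NT. Background medians were 175 to 239 in Ts and 138 to 151 in WT, and array background and genotype cannot be told apart. The number of the 131 probes detected per array was 87 to 107 in Ts-TPA, 96 to 109 in Ts-NT, 99 to 116 in WT-TPA and 107 to 123 in WT-NT. The cultures had the markers of their label, with 9 of 10 keratinocyte marker genes past the rule and their summed level (linear scale of the normalized signals, 1 probe per gene) at 44336 to 61509 in Ts-TPA, 54660 to 65972 in Ts-NT, 59949 to 73543 in WT-TPA and 65732 to 69453 in WT-NT. Of 10 fibroblast markers 6 were past the rule (summed level 781 to 1267 in Ts-TPA, 851 to 1276 in Ts-NT, 757 to 1273 in WT-TPA and 687 to 1129 in WT-NT). Of these, *Thy1* was detected on 4 arrays and *Dcn* on 6, and *Col1a1*, *Col1a2*, *Lum* and *Pdgfra* were not past the rule. All 6 melanocyte markers on the array were past it (10271 to 13783, 10380 to 15838, 11053 to 17586 and 9778 to 19181 for the groups in the same order). No gene of these 3 lists was called in the mean TPA response or between untreated genotypes. Fewer cells of a type and less RNA per cell cannot be told apart in bulk RNA, and the part of these cells in the results was not tested.

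Start regions are shown for 4 called genes that the text turns on and that have a RefSeq window. Both genes that fell most, *Slc2a3* and *Slco3a1*, have none here. RefSeq windows of GRCm38.p6 were matched by symbol for 13 of the 16 genes called in the mean TPA response, all but *Slc2a3*, *Slc40a1* and *Slco3a1*. The 250 bases before the annotated start are printed 5′ to 3′ on the gene's strand. They cover *Slc2a1* and *Slc2a6*, glucose transporters that moved in opposite directions, the glutamate transporter that fell and the anion transporter that rose. Capitals mark GGGCGG on either strand, which reads CCGCCC where it lies on the other one.
Slc2a1 (lower with TPA, chr4:119108495-119108744, plus strand): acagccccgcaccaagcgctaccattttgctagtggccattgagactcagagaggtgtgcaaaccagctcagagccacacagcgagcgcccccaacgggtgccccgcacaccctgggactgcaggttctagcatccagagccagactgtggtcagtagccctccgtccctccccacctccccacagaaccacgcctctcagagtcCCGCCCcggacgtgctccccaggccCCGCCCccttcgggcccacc
Slc2a6 (higher with TPA, chr2:27027999-27028248, minus strand): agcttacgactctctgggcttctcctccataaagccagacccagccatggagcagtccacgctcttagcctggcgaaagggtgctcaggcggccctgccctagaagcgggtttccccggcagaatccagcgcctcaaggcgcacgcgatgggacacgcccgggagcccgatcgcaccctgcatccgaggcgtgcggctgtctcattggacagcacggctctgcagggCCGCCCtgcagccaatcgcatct
Slc1a3 (lower with TPA, chr15:8710808-8711057, minus strand): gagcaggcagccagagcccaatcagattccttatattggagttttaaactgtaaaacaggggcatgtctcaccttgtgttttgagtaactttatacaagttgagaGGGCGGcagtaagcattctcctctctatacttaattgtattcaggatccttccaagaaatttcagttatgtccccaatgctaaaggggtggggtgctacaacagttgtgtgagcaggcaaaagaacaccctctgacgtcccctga
Slc26a9 (higher with TPA, chr1:131743772-131744021, plus strand): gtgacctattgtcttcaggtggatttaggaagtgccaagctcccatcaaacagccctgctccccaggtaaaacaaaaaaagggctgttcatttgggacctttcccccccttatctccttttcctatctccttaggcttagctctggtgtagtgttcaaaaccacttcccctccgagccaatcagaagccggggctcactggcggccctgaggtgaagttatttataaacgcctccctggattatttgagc

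Motifs of 4 kinds were counted in the same 250 bases, on both strands, over all 32851 windows, and a gene with several windows was counted when any of them held the motif. GGGCGG, the GC box bound by Sp factors, was in 32.7% of all windows, in 66.7% of the 5214 tested genes with a window, in 77.6% of the 85 solute carrier genes with one and in 10 of the 13 called genes, 6 of 6 that fell and 4 of 7 that rose. TGANTCA, the TPA response element bound by AP-1, was in 6.75% of all windows, in 6.16% of the tested genes, in 5.88% of the solute carrier genes and in 0 of the 13. TGACGTCA, the cyclic AMP response element, which does not contain it, was in 1.55% of all windows, 3.09% of the tested genes, 2.35% of the solute carrier genes and likewise 0 of the 13. CACGTG, the E-box, was in 6.02% of all windows, in 10.8% of the tested genes, in 15.3% of the solute carrier genes and in 2 of the 13, *Slc25a15*, which fell, and *Slc36a1*, which rose. These are matches of letters within 250 bases and not measured sites.

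Some solute carriers were called with TPA, and they came from several of the substrate classes. Over the 8 cultures of both genotypes, 17 of 131 probes had an adjusted p below 0.05, where 8.85% of all probes tested did, and 36 had an unadjusted p below 0.05 (24.4% of all). The 17 probes belong to 16 of 108 genes, where 10.3% of all genes tested were called. Of the genes, 9 were lower (5.92% of all) and 7 higher (4.37% of all). Probes that moved the same way in all 8 cultures numbered 13 of 131, against 7.84% of all probes, with 5 higher (3.21% of all) and 8 lower (4.63% of all). Arrays of the same replicate number deviated together across genotypes, so the 8 cultures may not be independent, while the fit of the mean response treats them as such. TPA and NT arrays did not overlap for 8 probes in Ts (4.90% of all) and 9 in WT (6.17% of all). The median change of the 108 genes was −0.08 on the log2 scale, beside −0.07 for all probes.

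Within a genotype the calls were fewer, and each was a fall. In Ts, 3 of 131 probes were called with TPA (0.866% of all probes were called, 0.228% lower), and in WT 4 of 131 were (2.37%, with 0.866% lower). Not every alternative gave falls alone in WT, where 1 of 4 calls in the deposited normalized values, 1 of 5 after quantile normalization and 3 of 6 without the WT culture of replicate 1 were higher. At an unadjusted p below 0.05 there were 23 probes in Ts and 25 in WT, against 12.7% and 18.4% of all probes. Without the Ts culture of replicate 3 the Ts count was 1, and without that of replicate 4 it was 0. Without the WT culture of replicate 2, 3 or 4 the WT count was 1, 2 or 0. For the mean response the count was 12 without the WT culture of replicate 3. It was 11 without the WT culture of replicate 2 or 4 or the Ts culture of replicate 4. Counts without a culture are given here without those of all probes, so they show no change particular to carriers. In all, 9 of the 17 probes stayed called whichever single culture was left out, and all 17 kept their direction. The sizes below are on the log2-like scale of the variance stabilized signals, with the standard error of the fit. In the deposited normalized values the same 17 changes were a median of 0.41 times as large, and with neqc they were 1.05 times as large.

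**Figure D1:**
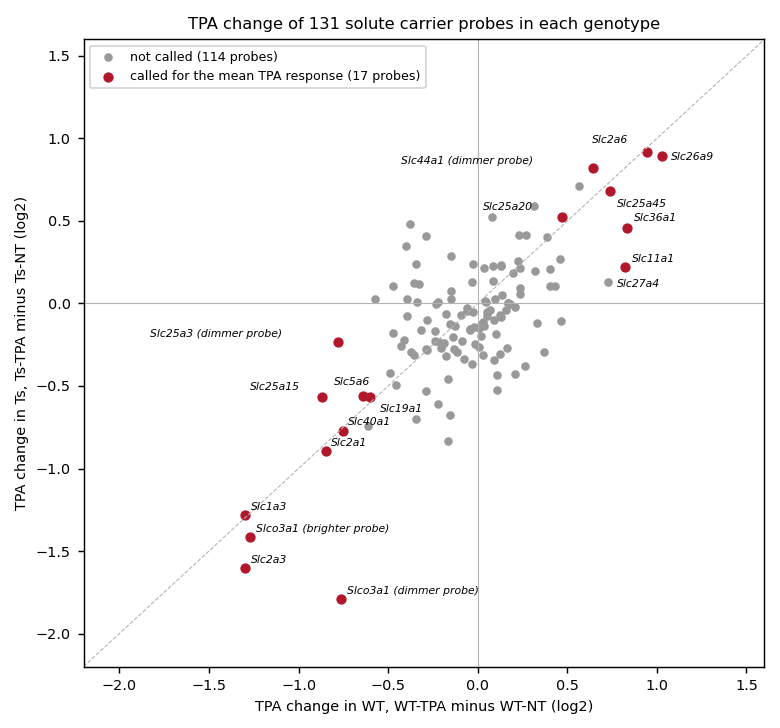
The TPA change of each of the 131 probes in Ts (vertical axis, log2) is plotted against that in WT (horizontal axis, log2), with the 17 probes called for the mean TPA response in red and the dashed line marking equal change. The red points lie in the lower left and upper right, and the dimmer *Slco3a1* probe, at −1.79 in Ts and −0.76 in WT, lies farthest below the line. No Ts-TPA array detected that probe, so its distance from the line has no exact size.

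Glucose transporters moved in both directions. *Slc2a3*, the high affinity transporter GLUT3, had signals of 9.04, 7.46, 8.42 and 7.78 in Ts-TPA, against 9.60, 9.84, 9.74 and 9.94 in Ts-NT. In WT-TPA it had 8.16, 7.68, 7.97 and 8.65, against 8.78, 9.70, 9.33 and 9.85 in WT-NT. The TPA and NT arrays did not overlap in either genotype, and the gene fell in all 8 cultures, by 1.61 ± 0.30 in Ts (adjusted p = 0.0317, and 0.0635 with neqc) and by 1.30 ± 0.23 in WT (adjusted p = 0.0202). Its mean response was the largest fall among the 108 genes (2.74-fold lower, −1.45 ± 0.20, adjusted p = 0.000864).

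*Slc2a1*, which encodes GLUT1, had 12.17, 11.86, 11.54 and 11.35 in Ts-TPA and 12.86, 12.64, 12.41 and 12.59 in Ts-NT. It had 12.07, 11.23, 12.10 and 11.50 in WT-TPA and 12.38, 12.78, 12.28 and 12.86 in WT-NT. Again no TPA array reached an NT array of its genotype, and the mean response was −0.87 ± 0.17 (1.83-fold lower, adjusted p = 0.00708). Within a genotype the changes of −0.90 in Ts and −0.85 in WT missed the threshold (adjusted p = 0.0846 and 0.114).

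*Slc2a6* encodes GLUT6, a glucose transporter family member known from lysosomes, and was detected on 13 of 16 arrays. Its signals were 6.68, 6.53, 6.94 and 7.53 in Ts-TPA against 5.96, 5.77, 5.93 and 6.36 in Ts-NT, and 6.06, 7.09, 6.54 and 7.16 in WT-TPA against 5.79, 6.09, 5.83 and 5.37 in WT-NT. It rose in all 8 cultures by a mean of 0.93 ± 0.16 (1.90-fold, adjusted p = 0.00347), and only in WT did a TPA array, at 6.06, lie below an NT array, at 6.09. The other 5 sugar carriers past the rule were not called. Among them *Slc45a2*, which acts in the melanosome, was detected on all 16 arrays by its brightest probe and changed by 0.18 ± 0.14 (adjusted p = 0.466), and its 4 probes gave −0.05 to 0.26. *Slc45a4* changed by 0.09.

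**Figure D2:**
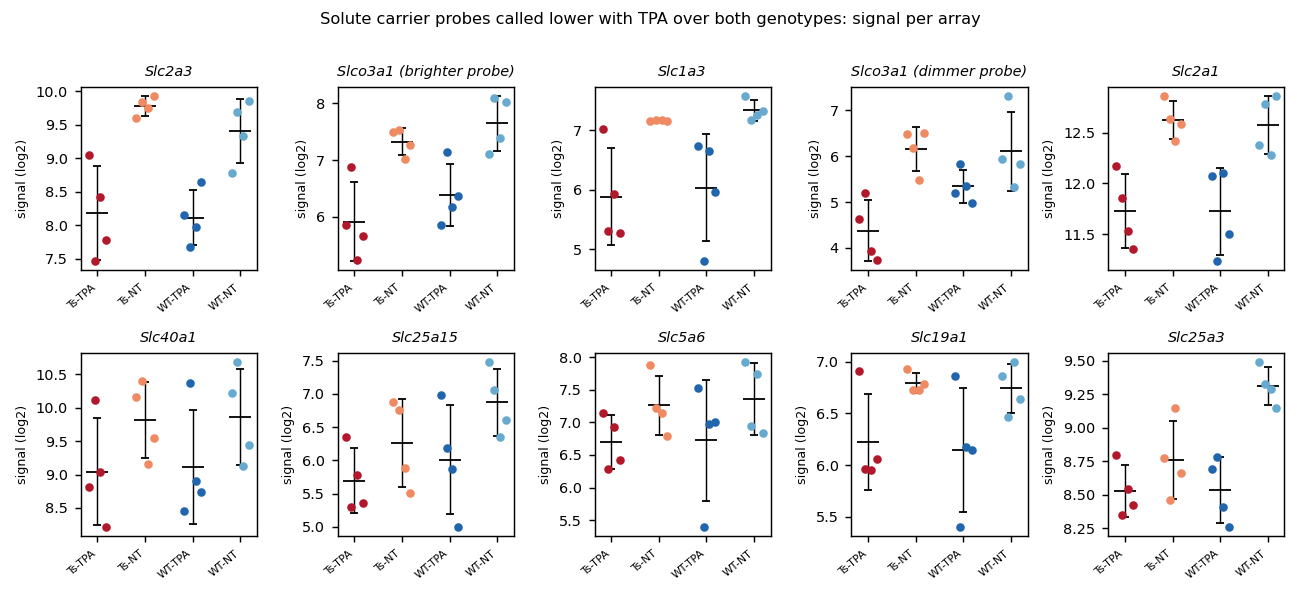
Normalized signal (log2, vertical axis) of the 10 probes called lower with TPA over both genotypes, 1 point per array, with the mean and s.d. of the 4 arrays of Ts-TPA, Ts-NT, WT-TPA and WT-NT. *Slc2a3*, *Slc2a1* and *Slc1a3* show no overlap between TPA and NT arrays in either genotype, while the *Slc40a1*, *Slc25a15*, *Slc5a6* and *Slc19a1* groups overlap. The *Slc25a3* panel is its dimmer probe.

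Among 20 genes for amino acids and peptides, 1 fell and 1 rose, where 5.92% and 4.37% of all genes did. *Slc1a3*, the sodium driven glutamate and aspartate transporter GLAST, had 7.02, 5.32, 5.93 and 5.27 in Ts-TPA against 7.17, 7.17, 7.17 and 7.16 in Ts-NT. In WT it had 6.74, 4.80, 6.66 and 5.97 with TPA against 7.59, 7.17, 7.27 and 7.33 without. NT arrays lay close together and every TPA array was below them, with detection on 1 of 4 arrays in Ts-TPA and 3 of 4 in WT-TPA, against all 4 in each NT group. The mean response was −1.29 ± 0.22 (2.45-fold lower, adjusted p = 0.00321), and the fall of 1.30 ± 0.27 in WT was also called (adjusted p = 0.0407, and 0.0502 in the deposited normalized values).

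*Slc36a1* encodes a proton driven carrier of small neutral amino acids known from the lysosome. It had 5.63, 6.06, 6.77 and 6.94 in Ts-TPA against 5.37, 6.07, 6.12 and 6.02 in Ts-NT, and 5.90, 6.98, 7.10 and 6.85 in WT-TPA against 5.52, 5.67, 6.24 and 6.07 in WT-NT. The groups overlapped in both genotypes, and 7 of 8 cultures were higher, with a mean response of 0.64 ± 0.15 (adjusted p = 0.0167). It lost the call without the WT culture of replicate 2 or the Ts culture of replicate 3.

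The large neutral amino acid transporter *Slc7a5* (LAT1) was lower in every culture without passing the test. Its signals were 11.31, 10.50, 10.09 and 10.01 in Ts-TPA against 11.64, 10.89, 10.47 and 10.17 in Ts-NT, and 10.66, 11.14, 10.33 and 10.21 in WT-TPA against 11.09, 11.16, 10.94 and 10.58 in WT-NT. Cultures differed more from each other than TPA from NT, and the paired change was −0.33 ± 0.12 (adjusted p = 0.107), which passed in the deposited normalized values (adjusted p = 0.0231) and after quantile normalization (0.0179). Its heavy chain partner *Slc3a2* changed by −0.30 in Ts and 0.37 in WT, and the cystine transporter *Slc7a11*, which uses the same heavy chain, by 0.02 in Ts and −0.57 in WT. The glutamine transporter *Slc38a2* changed by −0.17 in its brighter and 0.07 in its dimmer probe, and the cationic amino acid transporter *Slc7a1* by 0.03. None of these was called.

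The carrier with the lowest p-value for the mean response was an organic anion transporter. *Slco3a1* (OATP3A1), a carrier of organic anions that include prostaglandins, was measured by 2 probes. The brighter had 5.85, 6.89, 5.24 and 5.67 in Ts-TPA against 7.50, 7.53, 7.02 and 7.26 in Ts-NT, and 5.85, 7.15, 6.18 and 6.37 in WT-TPA against 7.10, 8.09, 7.39 and 8.03 in WT-NT. The Ts groups did not overlap, and in WT the ranges met between 7.10 and 7.15.

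All 8 cultures fell in the brighter *Slco3a1* probe, by 1.42 ± 0.24 in Ts (adjusted p = 0.0229) and by 1.27 ± 0.18 in WT (adjusted p = 0.00797), with a mean response of −1.34 ± 0.15 (2.54-fold lower, adjusted p = 0.000171). The call in Ts was lost in the deposited normalized values (adjusted p = 0.0501) and after quantile normalization (0.0558). In the deposited normalized values the mean response of this probe was −0.57. The dimmer probe had 4.62, 5.20, 3.93 and 3.75 in Ts-TPA against 6.48, 6.19, 5.48 and 6.50 in Ts-NT, and 5.21, 5.83, 5.36 and 4.97 in WT-TPA against 5.94, 7.32, 5.33 and 5.83 in WT-NT. It was called in Ts (−1.79 ± 0.28, adjusted p = 0.0148) and for the mean (−1.28 ± 0.20, adjusted p = 0.00162), and not in WT (−0.76 ± 0.24, adjusted p = 0.126). Its call in Ts was lost in the deposited normalized values (adjusted p = 0.105), with neqc (0.0518) and after quantile normalization (0.0948). No Ts-TPA array detected this probe, so its fold in Ts is only bounded, at least 1.02-fold lower. It was detected on 3 Ts-NT arrays and 1 WT-TPA array, so it passed the rule mostly through NT arrays, in which it was high. *Slco2a1*, the prostaglandin transporter, changed by 0.34 ± 0.13 (adjusted p = 0.128), with 7 of 8 cultures higher, and *Slco4a1* by −0.12.

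*Slc26a9*, an epithelial chloride transporter, rose in all 8 cultures. It had 5.92, 7.28, 5.72 and 5.54 in Ts-TPA against 5.35, 5.80, 4.72 and 5.02 in Ts-NT, and 6.21, 7.94, 6.44 and 5.89 in WT-TPA against 5.53, 5.92, 5.58 and 5.33 in WT-NT. The replicate 2 cultures had the highest value of their group in each of the 4 groups. Its mean response was 0.96 ± 0.18 (1.94-fold higher, adjusted p = 0.0052). The gene was detected on 2 of 4 Ts-TPA arrays and 0 Ts-NT arrays, and on 4 WT-TPA arrays and 1 WT-NT array, so it passed the rule mostly through the groups in which it was high. In Ts the change is bounded at only at least 1.05-fold higher.

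The other 8 genes for inorganic ions were not called. The sodium, potassium and chloride cotransporter *Slc12a2* changed by −0.11, and the phosphate transporters *Slc20a2* and *Slc20a1* by 0.64 ± 0.22 (adjusted p = 0.0877) and 0.30 ± 0.27. *Slc20a2* had 8.18, 7.48, 8.75 and 8.66 in Ts-TPA against 7.93, 7.68, 7.42 and 7.19 in Ts-NT, and 7.91, 7.58, 8.32 and 8.65 in WT-TPA against 7.92, 7.65, 7.48 and 7.16 in WT-NT. It was higher with TPA in 5 of 8 cultures, those of replicates 3 and 4 of both genotypes and of Ts replicate 1, and the groups overlapped in both genotypes.

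**Figure D3:**
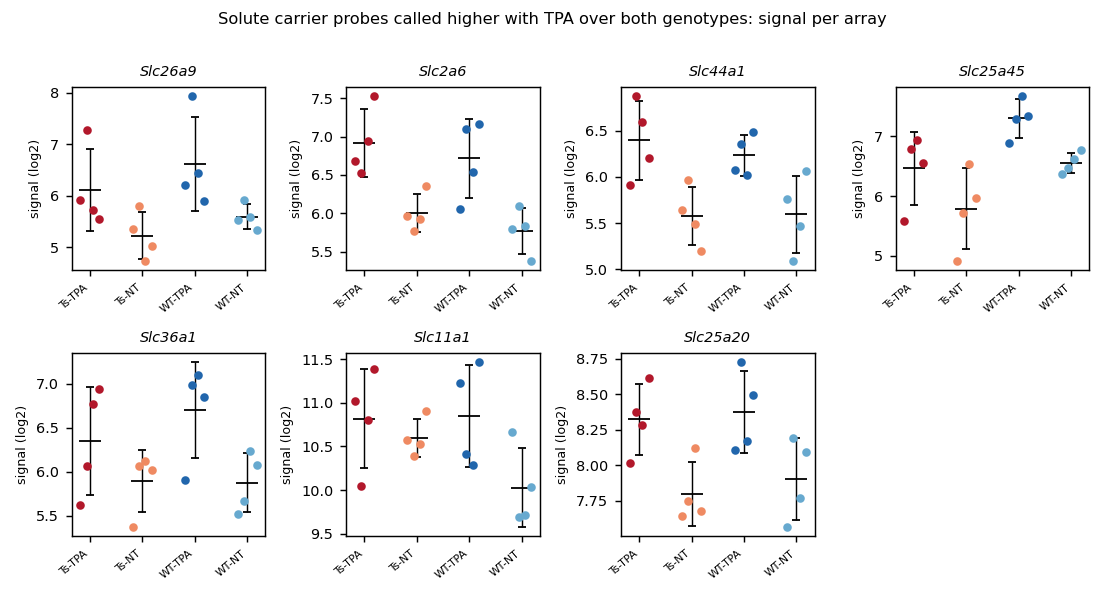
Normalized signal (log2, vertical axis) of the 7 probes called higher with TPA over both genotypes, 1 point per array, with the mean and s.d. of the 4 arrays of Ts-TPA, Ts-NT, WT-TPA and WT-NT. Most TPA and NT groups overlap, and *Slc2a6* in Ts and *Slc25a45* in WT do not. The *Slc44a1* panel is its dimmer probe.

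Of 15 genes for zinc, iron, copper and heme, 1 fell and 1 rose, where 5.92% and 4.37% of all genes did. *Slc40a1* encodes ferroportin, the exporter of iron from cells. It had 8.81, 10.12, 9.04 and 8.21 in Ts-TPA against 10.15, 10.40, 9.16 and 9.54 in Ts-NT, and 8.45, 10.36, 8.90 and 8.73 in WT-TPA against 10.21, 10.69, 9.12 and 9.44 in WT-NT. The groups overlapped because the cultures differed from each other, while each culture fell, by a mean of 0.76 ± 0.20 (1.70-fold lower, adjusted p = 0.03). The call was lost without the replicate 1 or the replicate 4 culture of either genotype.

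*Slc11a1* (NRAMP1), a metal ion carrier known from the endosomes of phagocytes, had 11.03, 10.05, 10.81 and 11.39 in Ts-TPA against 10.57, 10.39, 10.53 and 10.90 in Ts-NT. In WT it had 11.22, 10.42, 10.29 and 11.47 with TPA against 10.67, 9.70, 9.71 and 10.04 without. It was higher in 7 of 8 cultures, with a mean response of 0.52 ± 0.15 (adjusted p = 0.0442) that stayed called in 1 of the 8 fits without a culture. Of 10 macrophage and Langerhans cell marker genes on the array only *Cd14* passed the rule, on 8 arrays, with a level of 60.6 to 105 in Ts-TPA, 42.9 to 99.6 in Ts-NT, 38.97 to 113 in WT-TPA and 47.9 to 145 in WT-NT. Among the other 9, *Ptprc*, *Itgam*, *Adgre1*, *Cd207*, *Cd74*, *Fcer1g*, *H2-Aa* and *Tyrobp* were detected on 0 of 16 arrays, and *Lyz2* on at most 3. The zinc exporter *Slc30a1*, the copper importer *Slc31a1* and the iron importer *Slc11a2* changed by −0.20, −0.04 and 0.06.

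Vitamin carriers included 2 that fell among 8 genes for vitamins, nucleosides and nucleobases, where 5.92% of all genes fell. *Slc19a1*, the reduced folate carrier, had 6.91, 5.96, 5.96 and 6.06 in Ts-TPA against 6.93, 6.73, 6.73 and 6.78 in Ts-NT, and 6.86, 5.40, 6.17 and 6.15 in WT-TPA against 6.86, 6.46, 7.002 and 6.64 in WT-NT. The replicate 1 cultures of both genotypes hardly moved and the other 6 fell, with a mean response of −0.58 ± 0.15 (adjusted p = 0.029). *Slc5a6*, the sodium driven carrier of biotin and pantothenate, had 7.15, 6.29, 6.93 and 6.42 in Ts-TPA against 7.89, 7.22, 7.15 and 6.79 in Ts-NT, and 7.53, 5.39, 6.97 and 7.01 in WT-TPA against 7.93, 6.94, 7.74 and 6.84 in WT-NT. It was lower in 7 of 8 cultures (−0.60 ± 0.17, adjusted p = 0.0476). Both calls are near the threshold, with *Slc19a1* called in 2 and *Slc5a6* in 1 of the 8 fits that leave out a culture. The class as a whole had a median of −0.21 over its 8 genes, and 1 of the 8 was above 0.

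Mitochondrial carriers were the largest class, with 23 genes, of which 2 rose and 2 fell, where 4.37% and 5.92% of all genes did. *Slc25a45*, a member of the mitochondrial carrier family, had 5.59, 6.79, 6.94 and 6.55 in Ts-TPA against 4.91, 5.72, 6.54 and 5.98 in Ts-NT, and 6.88, 7.30, 7.68 and 7.33 in WT-TPA against 6.38, 6.48, 6.61 and 6.76 in WT-NT. It rose in all 8 cultures (0.71 ± 0.13, 1.64-fold, adjusted p = 0.00493), and the WT groups did not overlap. *Slc25a20*, which carries acylcarnitines into mitochondria for fatty acid oxidation, had 8.02, 8.37, 8.28 and 8.61 in Ts-TPA against 7.64, 7.75, 8.12 and 7.67 in Ts-NT, and 8.11, 8.73, 8.17 and 8.49 in WT-TPA against 7.56, 8.19, 7.77 and 8.09 in WT-NT. Its rise was smaller but also seen in all 8 cultures (0.50 ± 0.13, adjusted p = 0.0285), and it was called in 2 of the 8 fits without a culture.

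*Slc25a15*, the ornithine carrier of the urea cycle, had 6.35, 5.29, 5.78 and 5.36 in Ts-TPA against 6.88, 6.76, 5.89 and 5.51 in Ts-NT, and 6.98, 6.19, 5.87 and 4.99 in WT-TPA against 7.49, 7.05, 6.34 and 6.61 in WT-NT. All 8 cultures fell (−0.72 ± 0.18, adjusted p = 0.0251), while a dimmer second probe changed by −0.13 (adjusted p = 0.667). The call was lost without the replicate 2 culture of either genotype or the WT culture of replicate 4. The phosphate carrier *Slc25a3* was called through its dimmer probe, which had 8.80, 8.35, 8.54 and 8.42 in Ts-TPA against 8.77, 8.46, 9.15 and 8.66 in Ts-NT, and 8.70, 8.78, 8.41 and 8.25 in WT-TPA against 9.49, 9.33, 9.29 and 9.14 in WT-NT. That probe fell by 0.78 ± 0.17 in WT (adjusted p = 0.0489, and 0.111 with no detection filter) and by 0.51 ± 0.12 on average (adjusted p = 0.0242), and the brighter probe changed by −0.20 ± 0.13 (adjusted p = 0.352). The call for the mean was lost without the replicate 3 or the replicate 4 culture of either genotype. The adenine nucleotide carrier *Slc25a5* also changed by −0.20 (adjusted p = 0.328), and passed after quantile normalization (−0.24, adjusted p = 0.0382). The class had a median of −0.18 over its 23 genes, against −0.07 for all probes, and 7 of the 23 were above 0.

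*Slc44a1*, a choline transporter of the plasma membrane and mitochondria, rose in 1 of its 2 probes. The dimmer one had 5.91, 6.88, 6.60 and 6.20 in Ts-TPA against 5.64, 5.97, 5.50 and 5.20 in Ts-NT, and 6.08, 6.36, 6.02 and 6.48 in WT-TPA against 5.76, 5.09, 5.47 and 6.06 in WT-NT. It was higher in all 8 cultures (0.73 ± 0.15, adjusted p = 0.00922), and in Ts, where no NT array detected it, the rise was at least 1.28-fold. It was detected on 3 Ts-TPA and 0 Ts-NT arrays, and on 3 WT-TPA and 2 WT-NT arrays, so like *Slc26a9* it passed the rule mostly through the groups in which it was high. The brighter probe changed by 0.27 ± 0.15 (adjusted p = 0.296).

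In the same class *Slc27a4*, the fatty acid transport protein FATP4 that the skin barrier requires, was not called. It had 7.16, 7.15, 7.17 and 7.23 in Ts-TPA against 7.27, 7.02, 7.22 and 6.67 in Ts-NT, and 7.20, 8.33, 7.61 and 7.60 in WT-TPA against 7.15, 6.91, 7.08 and 6.69 in WT-NT. All 4 WT cultures were higher with TPA, by a mean of 0.73 ± 0.23 (adjusted p = 0.129), and 2 of 4 Ts cultures were (0.13 ± 0.21). The difference between the genotypes had an unadjusted p of 0.079. *Slc10a6*, a carrier of sulfated steroids, changed by −0.52 ± 0.16 (adjusted p = 0.0615) and *Slc10a7* by 0.16.

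**Figure D4:**
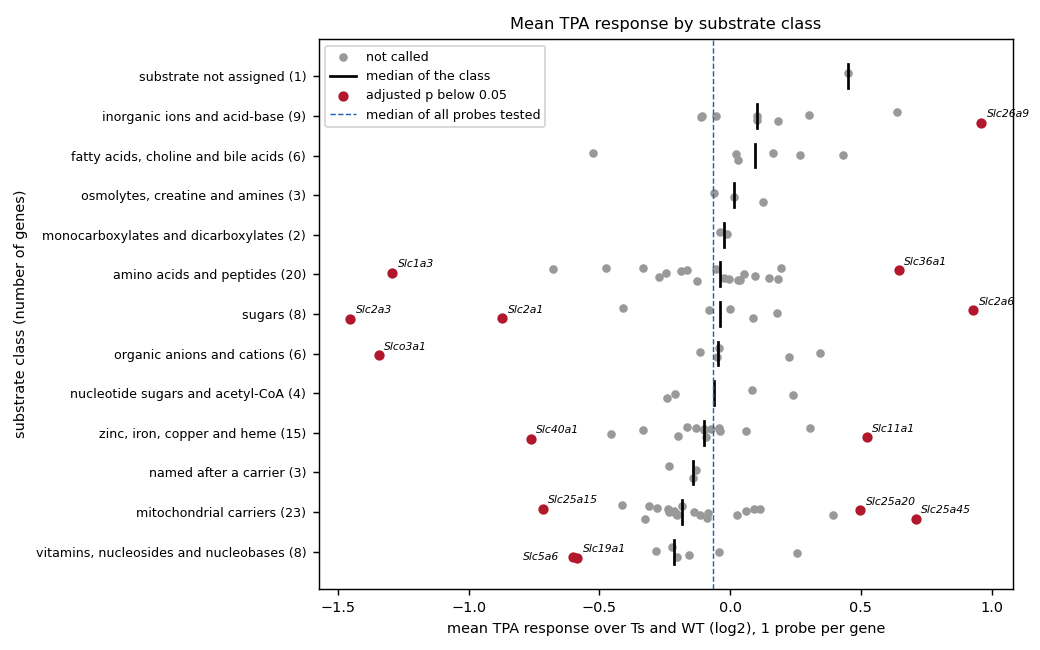
Mean TPA response (log2, horizontal axis) of the 108 genes, 1 point for the brightest probe of each, by substrate class, with the class median as a black line and the median of all 8778 probes dashed. Red points passed the test, and in sugars, amino acids, metals and mitochondrial carriers they lie on both sides of the dashed line. *Slc44a1* and *Slc25a3*, called by a dimmer probe, are not red here.

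No gene was called in the remaining classes. The nucleotide sugar carriers *Slc35a1* for CMP-sialic acid, *Slc35a2* for UDP-galactose and *Slc35a3* for UDP-N-acetylglucosamine changed by 0.24, −0.21 and −0.24. The monocarboxylate carriers *Slc16a3* (MCT4) and *Slc16a6* changed by −0.01 and −0.04. The taurine transporter *Slc6a6*, the creatine transporter *Slc6a8* and the serotonin transporter *Slc6a4* changed by −0.06, 0.02 and 0.12. *Slc66a2* changed by 0.45 ± 0.17 (adjusted p = 0.128), and the lysosomal carrier *Slc46a3*, of the vitamin class, by 0.25. The rule also took 3 genes that are only named after a carrier, the adaptor *Slc9a3r1*, *Slc4a1ap* and *Slc7a6os*, which changed by −0.23, −0.14 and −0.13.

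Several carriers of note were not past the rule. The probes of *Slc16a1* (MCT1), the glutamine transporter *Slc1a5*, the nucleoside transporter *Slc29a1*, the zinc importer *Slc39a14*, the inositol transporter *Slc5a3* and the melanosome exchanger *Slc24a5* were detected on 0 of 16 arrays, and those of *Slc27a1* and *Slc39a4* on at most 1. Of the 20 genes with several probes, 15 had the same sign of mean response in all their probes and 5 did not, among them *Slc38a2* and *Slc45a2*.

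Partners of the carriers were read from lists that hold no carrier. Of 10 tested genes that chaperone or regulate transporters, 1 was called lower and 1 higher, where 5.92% and 4.37% of all genes were. *Emb*, the embigin chaperone of monocarboxylate carriers, changed by −0.64 ± 0.14 (adjusted p = 0.0116), and *Arrdc4*, an arrestin that takes GLUT1 off the cell surface, rose by 0.44 ± 0.12 (adjusted p = 0.0378). *Txnip*, its relative with the same role, changed by 0.57 ± 0.23 (adjusted p = 0.152). Of 4 sodium pump genes 1 rose, *Fxyd5*, in 1 of its 2 probes (0.92 ± 0.15, adjusted p = 0.00213).

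Metal handling genes outside the carriers had 2 of 9 called higher (4.37% of all genes), the ferritin heavy chain *Fth1* in 1 of its 2 probes (0.68 ± 0.17, adjusted p = 0.0247) and the metalloreductase *Steap2* (0.54 ± 0.15, adjusted p = 0.0358). The transferrin receptor *Tfrc* changed by −0.35 and −0.44 in its 2 probes (adjusted p = 0.151 and 0.099). Of 12 genes of the amino acid response 2 rose and 3 fell, beside 4.37% and 5.92% of all genes. *Chac1* (0.82 ± 0.18, adjusted p = 0.0142) and *Ddit3* in 1 of 2 probes (0.86 ± 0.17, adjusted p = 0.0087) rose, and the serine pathway enzyme *Shmt2* (−0.67 ± 0.14, adjusted p = 0.0091), *Stc2* (−0.62 ± 0.14, adjusted p = 0.0185) and 1 of 3 probes of *Vldlr* (−0.68 ± 0.13, adjusted p = 0.00866) fell. Of 3 mitochondrial outer membrane channels 0 were called, and *Vdac1* changed by −0.50 ± 0.15 (adjusted p = 0.0538).

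Whether the TPA response of a carrier differed between Ts and WT was tested directly. None of the 131 probes was called, as none of all 8778 was (0%). At an unadjusted p below 0.05 there were 8 member probes, against 3.69% of all probes. A fit that also paired cultures of the same number across genotypes, chosen after the data were seen and with 3 residual degrees of freedom, called 0 of 131 (0% of all probes), with 15 at an unadjusted p below 0.05 (5.91% of all). Among the 8 were the dimmer *Slco3a1* probe (unadjusted p = 0.021), which was detected on 0 Ts-TPA arrays and 1 WT-TPA array and so has no size here, while its brighter probe differed by −0.15, and *Slc35a2* (−0.63, unadjusted p = 0.049). The dimmer *Slc25a3* probe differed by 0.55 (unadjusted p = 0.047). *Slc11a1*, with changes of 0.22 ± 0.22 in Ts and 0.82 ± 0.20 in WT, differed by −0.60 (unadjusted p = 0.061).

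Genotype itself moved no carrier past the threshold. Of 131 probes 0 were called between Ts-NT and WT-NT (0% of all probes), and 0 between Ts-TPA and WT-TPA, where 0.0114% of all probes were. At an unadjusted p below 0.05 there were 9 and 14 member probes, against 12.2% and 14.3% of all probes. Ts and WT arrays did not overlap for 4 member probes untreated and 2 with TPA, against 8.66% and 7.13% of all probes. Each was lower in Ts, as 7.18% and 6.17% of all probes were. Since the median of all probes was −0.15 untreated and −0.19 with TPA, differences are given less that median, and the p-value belongs to the fitted difference before that step.

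The lowest p among untreated cultures was in the dimmer probe of *Slc25a24*, a mitochondrial carrier of ATP-Mg and phosphate, at −0.81 (unadjusted p = 0.0035, adjusted p = 0.205). Blocking on replicate number called this probe alone of the 131 (adjusted p = 0.0345), when it called 1.15% of all probes. It was detected on 0 Ts-NT and 0 Ts-TPA arrays, and on 4 WT-NT and 2 WT-TPA arrays. It thus passed the rule only through WT arrays, in which it was high, and its p-values carry that selection. Its level in Ts-NT is a bound, at least 1.03-fold lower, in signals where background goes with genotype. The brighter probe had means of 5.16 in both Ts groups and 6.13 in WT-TPA. It was detected on 1 Ts-NT, 0 Ts-TPA and 2 WT-TPA arrays.

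*Slc12a3*, the sodium chloride cotransporter known from the kidney, had the largest positive difference both untreated and with TPA. It had 8.07, 8.17, 7.85 and 8.37 in Ts-TPA against 7.14, 7.97, 7.34 and 6.99 in WT-TPA, and 8.57, 7.84, 7.46 and 7.66 in Ts-NT against 7.32, 7.50, 6.98 and 7.11 in WT-NT. The lowest Ts array lay below the highest WT array with TPA, at 7.85 and 7.97, and untreated, at 7.46 and 7.50. The difference was 0.80 untreated (unadjusted p = 0.018) and 0.95 with TPA (unadjusted p = 0.0076), with adjusted p of 0.31 and 0.21.

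*Slc6a8*, the creatine transporter, had 8.36, 8.62, 8.65 and 8.44 in Ts-TPA against 9.36, 9.42, 8.74 and 9.07 in WT-TPA, with no overlap. Untreated it had 8.48, 8.89, 8.42 and 8.43 in Ts-NT against 9.50, 9.20, 8.88 and 8.72 in WT-NT, and it differed by −0.44 with TPA and −0.37 without (unadjusted p = 0.0083 and 0.024, adjusted p = 0.21 and 0.33). *Slc25a45*, which rose with TPA, differed by −0.64 with TPA and −0.63 without (adjusted p = 0.26 and 0.34). *Slc35a2* and *Slc7a6os* differed by 0.74 and 0.57 untreated and by 0.15 and 0.35 with TPA (adjusted p of at least 0.33).

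By class, sugar carriers stood highest above the median of all probes among classes of more than 3 genes, with a median of 0.33 untreated and 0.36 with TPA over 8 genes, 7 of them above it in both. No probe of them was called, and their differences ran from −0.00 to 0.58 untreated. Over all 108 genes the median lay 0.07 untreated and 0.09 with TPA above that of all probes. Carriers on chromosome 16 past the rule were *Slc15a2* and *Slc25a1*, and neither lies between *Cbr1* and *Fam3b*, the ends of the trisomic segment. *Slc25a1*, the mitochondrial citrate carrier, differed by 0.13 untreated and 0.11 with TPA in its brighter probe, and *Slc15a2*, a peptide transporter, by 0.42 and 0.27.

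**Figure D5:**
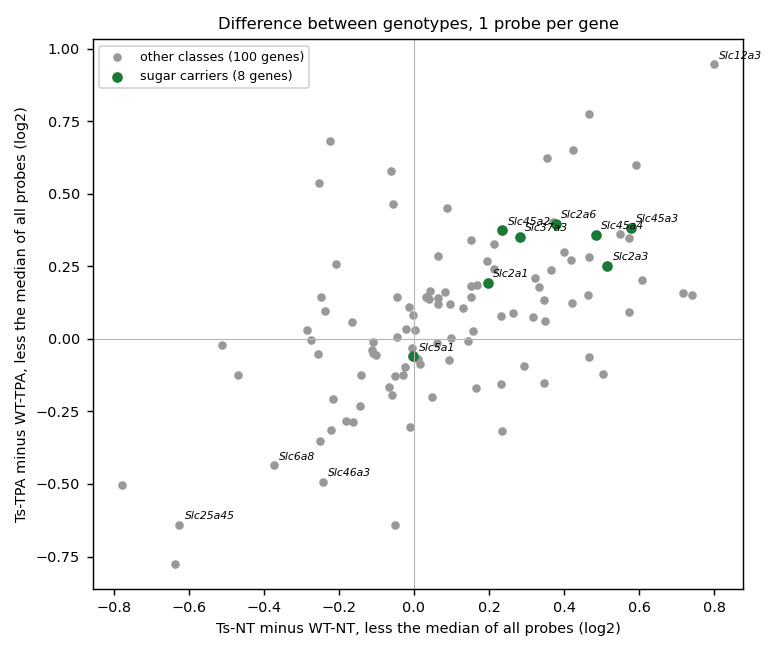
Difference between genotypes for the 108 genes (brightest probe), Ts-TPA minus WT-TPA on the vertical axis and Ts-NT minus WT-NT on the horizontal axis, both log2 and less the median of all probes. The 8 sugar carriers are green, and 7 of them lie above 0 on both axes. *Slc12a3* lies highest, at 0.95 with TPA and 0.80 untreated.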

How the data were processed

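Keratinocyte RNA was read on 16 Illumina MouseRef-8 arrays in 1 color. The authors deposited raw bead intensities and a detection p-value per probe and array, in which each probe is compared with the negative control probes of its array. They also deposited log2 values made with vsn, used as an alternative. The submitters' processing notes name limma, with no version, and no source used here gives slide or scanner software.

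Raw intensities were normalized with the vsn model rewritten in R 4.3.3 (arsinh transform, per-array offset and scale, 7 trimming rounds that kept a quantile of 0.9 within 10 strata). Comparisons used limma 3.58.1 (lmFit, eBayes), two-sided, with Benjamini-Hochberg adjustment over all 8778 probes and a threshold of 0.05. TPA was tested with the culture as a block, within each genotype and over both, and genotypes by group means over 16 arrays. The culture as a random block used statmod 1.5.0. Fits were tested on simulated data. An undetected group was set at the detection level of its arrays, and such a fold is written as at least. Motifs were counted with Python 3.11.15.

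Named are genes with a called probe, per class the 2 lowest p for the mean TPA response and the 1 lowest for Ts-NT against WT-NT, and 29 carriers of interest, 20 of them past the rule. The probe with the highest mean stands for a gene. *Slc15a2*, *Slc25a1* and the dimmer *Slc25a24* probe were chosen after their values were seen. Members, classes and lists were chosen with earlier results of these data known.

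Arrays of the same number were compared by their deviations from group means. Within a genotype, where the methods pair arrays by the source of the cells, correlations were 0.31, 0.18, 0.23 and 0.07 in Ts and 0.41, 0.44, 0.44 and 0.18 in WT. In both genotypes the best match of replicate 4 was replicate 3 of the other treatment, while the other numbers matched themselves best. The culture block and the counts of cultures rest on this pairing, which is least sure for replicate 4. Across genotypes the correlations were 0.56, 0.52, 0.33 and 0.23 with TPA and 0.51, 0.31, 0.34 and 0.27 untreated. Each number matched itself best there, so the number pairs arrays across genotypes too. No source used here says what the number stands for.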

Additional observations from a re-analysis of the deposited data

Results flagged for a closer look

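Single arrays stood apart from the other 3 of their group, by a gap over range test, in 6 of 208 groups of 4 tested (2.88%), where chance gives about 1 in 20. *Slc19a1* was at 6.91 in Ts-TPA replicate 1, against 5.96 to 6.06 in the others. *Slc36a1* was at 5.37 in Ts-NT replicate 1, against 6.02 to 6.12. *Slc45a2* was at 6.87 in Ts-NT replicate 4, against 6.53 to 6.58. *Slc6a6* was at 10.99 in WT-TPA replicate 2, against 11.25 to 11.30, and at 11.24 in WT-NT replicate 2, against 11.39 to 11.40. *Slc6a8* was at 8.89 in Ts-NT replicate 2, against 8.42 to 8.48.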

How the results depend on the processing

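All 17 probes called for the mean TPA response kept their sign under each of 15 alternatives. Of them 7 also passed in each, both of *Slco3a1*, *Slc2a3*, *Slc1a3*, *Slc2a1*, *Slc2a6* and the dimmer *Slc44a1* probe. The *Slc44a1* probe passed the detection rule mostly through TPA arrays, and the dimmer *Slco3a1* probe mostly through NT arrays. Each was high there. Among the others, *Slc19a1*, *Slc25a15* and *Slc5a6* lost the call in the deposited values, *Slc5a6* with neqc, and *Slc19a1* and *Slc5a6* after quantile normalization. The count was 11 with no detection filter, where all probes of the array share the adjustment, and 8 without the replicate block. Over all probes these settings gave 403 and 297 calls, against 777 in the main fit. Without the replicate block TPA in WT gave 0 and TPA in Ts 2 calls. All probes went from 208 to 31 calls in WT and from 76 to 36 in Ts. With neqc TPA in Ts gave 1 call, beside 59 over all probes. Leaving out 1 culture gave 11 to 15 calls for the mean response, 0 to 3 in Ts and 0 to 6 in WT. All probes gave 374 to 857, 29 to 98 and 30 to 345 in the same order. Whether carriers lost more calls than other probes was not tested. With the replicate number as a block, Ts-NT against WT-NT gave 1 call, and it changed no other call between genotypes. Pairing cultures of the same number across genotypes as well, a fit chosen after the data were seen that takes the spread between numbers out of the error, gave 22 calls for the mean response (13.8% of all probes), with all 17 among them, and 0 for the difference. Some uncalled values turned sign. The mean response of *Slc16a3* was 0.00899 in the deposited values, and that of *Slc31a1* 0.0243 with neqc and 0.0143 after quantile normalization. For Ts-TPA against WT-TPA as fitted, *Slc35a2* was 0.0323 in the deposited values, 0.0429 with neqc and 0.0139 after quantile normalization, *Slc11a1* 0.11, 0.26 and 0.24 in the same order, and *Slc66a2* 0.13 with neqc and 0.12 after quantile normalization. The cause was not tested. After quantile normalization the 17 changes were a median of 0.39 times as large. Signals near the detection level limit *Slc26a9*, *Slc36a1*, *Slc25a15* and the dimmer *Slco3a1* and *Slc44a1* probes. The same limit touches other called probes that some arrays did not detect. *Slc1a3*, *Slc19a1* and *Slc25a45* were detected on 12 arrays each, *Slc2a6* and the brighter *Slco3a1* probe on 13 each, and *Slc5a6* on 15.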
